A study of Homo sapiens with 8 samples.

Results

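The IL-6 family of cytokines and its signalling arm were followed through HDAC6 depletion and IL-1 stimulation of SW1353 cells, an established human chondrosarcoma line that is used as a model of chondrocytes. The 7 genes are the cytokines IL6, LIF, IL11 and CLCF1, the shared receptor chain IL6ST (gp130), the transcription factor STAT3 and the inhibitor SOCS3. They were chosen by name, but with earlier results of these data known, so the choice was not independent of the values. A probe was listed for 6 of them, out of 18665 genes with a probe of their own. These 6 genes had 11 probes, of which 9 passed a filter that asked for a detection p-value under 0.05 on at least 2 of the 8 arrays. CLCF1 had no probe listed and has no value here.

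There were 4 groups of 2 arrays each, and all were SW1353 cells grown in DMEM. The siHDAC6 + IL-1 cells received siRNA against HDAC6 and were stimulated, per the labels, 24 h later with IL-1alpha for 6 h, while the general transfection method adds a night without serum before stimulation. The siHDAC6 cells received the same siRNA without IL-1. The siCon + IL-1 cells received the non-targeting AllStars siRNA and the same IL-1, and the siCon cells received that siRNA alone. The cells are 1 line, and the 2 arrays of a group come from duplicate treatments that are not stated to be separate cultures, so the p-values measure the spread between these arrays, which may be technical. Levels are given as normalized log2 signal, where a difference of 1 is a doubling of the signal, and the levels of different probes are not set against each other. Because RNA was taken from whole cultures, fewer cells that express a gene and less RNA per cell cannot be told apart.

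An array detected 29.3% to 34.1% of its 48803 probes, and the lowest log2 signal of a detected probe was 4.90 to 5.17. The replicate arrays of a group correlated at 0.988 to 0.992 over the 11182 genes tested. HDAC6, the siRNA target, had a log2 signal of 4.84 and 4.87 in siHDAC6 + IL-1 cells and of 5.14 and 4.87 in siHDAC6 cells, against 6.63 and 6.46 in siCon + IL-1 cells and 6.36 and 6.32 in siCon cells. Its probe was detected on 1 of the 4 siHDAC6 arrays and on all siCon arrays, and in siHDAC6 + IL-1 cells HDAC6 was at least 3.0-fold lower than in siCon + IL-1 cells (limma, adjusted p = 0.000624). Of 9 chondrocyte markers, SOX9, HAPLN1 and COL11A1 were detected on all 8 arrays, COL2A1, COL9A1 and COL11A2 on some, COL2A1 near the detection limit, and ACAN, MATN3 and COMP on 0 arrays. SOX9 fell with IL-1 by 0.67 on the log2 scale in siHDAC6 cells and by 1.16 in siCon cells (adjusted p = 0.0106 and 0.000356). HAPLN1 was higher after HDAC6 depletion with IL-1 (log2 difference 0.72, adjusted p = 0.0128). The mesenchymal markers VIM, COL1A1, COL1A2 and COL6A1 were detected on all 8 arrays. Of these COL1A1 was higher after HDAC6 depletion with IL-1 (0.71, adjusted p = 0.0128) and without it (0.85, adjusted p = 0.00884), and COL1A2 fell with IL-1 in siCon cells by 0.40 (adjusted p = 0.0307). The leukocyte markers PTPRC, CD14, ITGAM and CD3E were detected on 0 arrays, while CD68, which also marks lysosomes, was detected on all 8 arrays and CD79A on 4. CD68 was lower after HDAC6 depletion with IL-1 (log2 difference -0.72, adjusted p = 0.00782) and without it (-0.49, adjusted p = 0.0435), and rose with IL-1 in siCon cells by 0.40 (adjusted p = 0.0309). The part of these markers in the results was not tested.

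IL-6 family cytokines are secreted proteins that bind a receptor of their own on the cell surface and then recruit gp130, the product of IL6ST, which these ligands share. Bound gp130 activates Janus kinases, which phosphorylate STAT3, and STAT3 then enters the nucleus and switches on its target genes. SOCS3 is among these targets and closes the loop, since its product binds gp130 and blocks the kinases. In joints IL-6 is known as an inflammatory cytokine that chondrocytes and synovial cells release after stimulation with IL-1.

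The stretches of genome before the starts of IL6 and IL11 are shown because both genes encode ligands of the family and stood apart in their response to IL-1, IL6 with a large rise and IL11 with no call. The sequences are from RefSeq (GRCh38.p14) and cover the 250 bases before the annotated start, read 5′ to 3′ on the strand of the gene. Capitals mark the letters that matched 1 of 4 searched motifs, namely NF-kB (GGGNN followed directly by TTTCC), AP-1 (TGANTCA), C/EBP (TTGCNNAA) and STAT (TTCNNNGAA), each searched on both strands, where N is any base. The IL6 window is chr7:22726950-22727199 on the plus strand, and the IL11 window is chr19:55370464-55370713 on the minus strand.
IL6: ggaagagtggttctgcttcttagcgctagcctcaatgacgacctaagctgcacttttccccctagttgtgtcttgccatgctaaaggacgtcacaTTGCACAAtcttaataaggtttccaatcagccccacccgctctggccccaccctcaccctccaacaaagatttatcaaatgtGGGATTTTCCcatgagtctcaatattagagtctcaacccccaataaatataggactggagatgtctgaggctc
IL11: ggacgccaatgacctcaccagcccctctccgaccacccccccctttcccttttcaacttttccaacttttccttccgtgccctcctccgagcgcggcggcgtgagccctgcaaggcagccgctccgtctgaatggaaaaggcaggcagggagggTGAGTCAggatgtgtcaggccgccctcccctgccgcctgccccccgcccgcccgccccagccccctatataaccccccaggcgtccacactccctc

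The IL6 window held an NF-kB match, GGGATTTTCC, from 73 to 64 bases before the start, and a C/EBP match, TTGCACAA, from 155 to 148 bases before it. The IL11 window held an AP-1 match, TGAGTCA, from 96 to 90 bases before the start. Windows were found for 5 of the 7 genes, and those of IL6ST, STAT3 and SOCS3 held none of the 4 motifs in these letters. Among the 35116 RefSeq windows of the same length, 1.73% held the NF-kB letters, 9.05% the C/EBP letters, 6.57% the AP-1 letters and 6.57% the STAT letters. A match describes the letters of the window and is not evidence that a factor binds there.

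IL6, the ligand that gives the family its name, had a log2 signal of 9.74 and 9.60 in siHDAC6 + IL-1 cells and of 4.69 and 4.46 in siHDAC6 cells, against 11.75 and 11.86 in siCon + IL-1 cells and 4.44 and 4.44 in siCon cells. It was detected on all 4 arrays with IL-1 and on 0 of the 4 arrays without it. In the deposited signal, before any normalization, these are 881 and 892 units in siHDAC6 + IL-1 cells and 68.1 and 59.7 in siHDAC6 cells, against 3796 and 3081 in siCon + IL-1 cells and 60.9 and 55.4 in siCon cells. The siHDAC6 + IL-1 arrays thus lay below both siCon + IL-1 arrays and far above all arrays without IL-1, with no overlap. Between the 2 groups with IL-1, 52.4% of all genes did not overlap.

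With IL-1, IL6 rose at least 25.6-fold in siHDAC6 cells (adjusted p = 2.22e-07 by limma with Benjamini-Hochberg adjustment over all genes). In siCon cells it rose at least 117-fold (adjusted p = 1.77e-08). Both are lower bounds because the arrays without IL-1 were below detection. The p-values belong to the fitted log2 differences of 5.09 and 7.36. IL6 passed the detection filter only through the arrays with IL-1.

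In the presence of IL-1, IL6 in siHDAC6 + IL-1 cells was 4.39-fold lower than in siCon + IL-1 cells (log2 difference -2.14, SE 0.12, 95% interval -2.41 to -1.86, adjusted p = 0.000199). That was the 4th lowest difference of the 11182 genes tested. The call held under all 19 alternatives, with log2 differences from -2.21 to -2.03. Without IL-1 the log2 difference between siHDAC6 and siCon cells was 0.13 (adjusted p = 0.60), with both groups below detection. The fitted IL-1 response in siHDAC6 cells minus that in siCon cells was -2.27 on the log2 scale (adjusted p = 0.00555). Since all 4 arrays without IL-1 were below detection, the size of either response is not known, and this value rests on the difference between the IL-1 groups. That test of the difference between the responses was called for 0.116% of all genes (0.107% lower and 0.00894% higher), and for IL6 the call was lost without siCon replicate 2 (adjusted p = 0.0732, log2 difference -2.27).

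**Figure D1:**
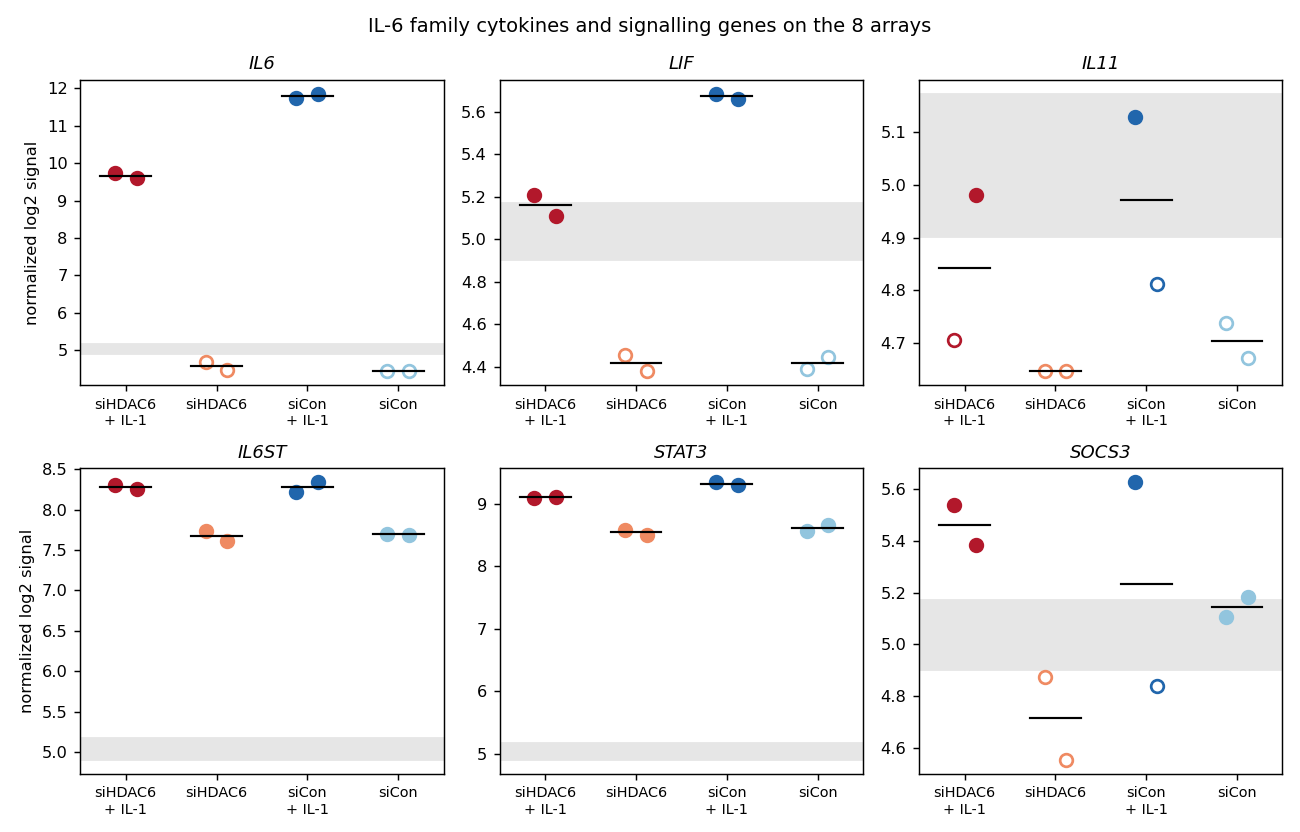
Normalized log2 signal of the 6 measured IL-6 family genes on each of the 8 arrays, with the groups along the x axis and a y axis of its own for each gene. Filled points were detected on that array and hollow points were not, bars are group means of 2 arrays, and the grey band is the range, over arrays, of the lowest detected log2 signal. IL6 reached 9.74 and 9.60 in siHDAC6 + IL-1 cells and 11.75 and 11.86 in siCon + IL-1 cells, and lay below the band without IL-1.

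LIF, a ligand that signals through gp130 paired with the LIF receptor, followed the same order of groups. Its log2 signal was 5.21 and 5.11 in siHDAC6 + IL-1 cells and 4.46 and 4.38 in siHDAC6 cells, against 5.68 and 5.66 in siCon + IL-1 cells and 4.39 and 4.45 in siCon cells. It was detected on the 4 arrays with IL-1 and on 0 of those without. The 2 groups with IL-1 did not overlap, which held for 52.4% of all genes. Without IL-1 the siHDAC6 and siCon arrays overlapped, where 50.6% of all genes did not.

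The fitted log2 rise of LIF with IL-1 was 0.74 in siHDAC6 cells (adjusted p = 0.00242) and 1.25 in siCon cells (adjusted p = 8.52e-05). Since the arrays without IL-1 were below detection, the rise is known only as at least 1.13-fold and at least 1.67-fold. LIF passed the detection filter only through the arrays with IL-1, so its rise carries no weight of its own. In siHDAC6 + IL-1 cells LIF was 1.43-fold lower than in siCon + IL-1 cells (log2 difference -0.51, 95% interval -0.74 to -0.28, adjusted p = 0.0228). This call sits close to the threshold, since it was lost under 9 of 19 alternatives. Leaving out siHDAC6 + IL-1 replicate 1 or 2 gave an adjusted p of 0.0808 or 0.122, leaving out siCon + IL-1 replicate 1 or 2 gave 0.0671 or 0.0828, and the authors' own log2 values gave a difference of -0.15 (adjusted p = 0.109). The test of the difference between the fitted responses of LIF did not pass (adjusted p = 0.32), and as for IL6 both were taken against arrays below detection.

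IL11, a ligand with its own receptor that also uses gp130, stayed at the detection limit. Its log2 signal was 4.71 and 4.98 in siHDAC6 + IL-1 cells and 4.65 and 4.65 in siHDAC6 cells, against 5.13 and 4.81 in siCon + IL-1 cells and 4.74 and 4.67 in siCon cells. Only 1 array of each IL-1 group detected it, and the 2 IL-1 groups overlapped. The log2 difference with IL-1 was 0.20 in siHDAC6 cells (adjusted p = 0.44) and 0.27 in siCon cells (adjusted p = 0.23), against arrays below detection in both. With siHDAC6 + IL-1 set against siCon + IL-1 it was -0.13, with a 95% interval of -0.45 to 0.20 (adjusted p = 0.64). At this signal a small change of IL11 in either direction was not detectable.

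IL6ST, the gp130 chain through which IL-6, LIF and IL-11 all signal, rose with IL-1 by about the same amount in both siRNA groups when its probes were averaged. The mean of its 2 usable probes was 8.30 and 8.25 log2 signal in siHDAC6 + IL-1 cells and 7.74 and 7.61 in siHDAC6 cells, against 8.22 and 8.34 in siCon + IL-1 cells and 7.70 and 7.69 in siCon cells. Every IL-1 array was above every array without IL-1, and the siHDAC6 and siCon arrays overlapped at either condition. Arrays of the 2 groups did not overlap for 55.7% of all genes in the IL-1 comparison of siHDAC6 cells and for 59.9% in that of siCon cells, so the separation alone is common.

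The rise of IL6ST with IL-1 was 1.52-fold in siHDAC6 cells (log2 difference 0.60, SE 0.10, adjusted p = 0.00909) and 1.5-fold in siCon cells (0.58, SE 0.10, adjusted p = 0.00633). Between siHDAC6 + IL-1 and siCon + IL-1 cells IL6ST differed by 0.00 on the log2 scale (95% interval -0.24 to 0.24), and its IL-1 responses differed by 0.02 (95% interval -0.32 to 0.36). This near-equality averages 2 probes that differed in direction, neither with a called difference between the responses. The rise in siHDAC6 cells was larger than that in siCon cells for ILMN_1797861 and smaller for ILMN_1849013 (difference -0.14). By probe, the rise in siHDAC6 cells was 0.85 for ILMN_1797861 and 0.36 for ILMN_1849013, which alone did not pass (adjusted p = 0.0926). Leaving out siHDAC6 + IL-1 replicate 1 or siHDAC6 replicate 2 also ended the call in siHDAC6 cells (adjusted p = 0.0644 and 0.0661). In all, the call was lost under 5 of 20 alternatives in siHDAC6 cells and under 1 of 20 in siCon cells. The remaining IL6ST probe was detected on 0 arrays.

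STAT3, the transcription factor that gp130 activates, was well above the detection limit on all arrays with all 3 of its probes. Its mean log2 signal was 9.10 and 9.11 in siHDAC6 + IL-1 cells and 8.58 and 8.51 in siHDAC6 cells, against 9.35 and 9.30 in siCon + IL-1 cells and 8.57 and 8.67 in siCon cells. The siHDAC6 + IL-1 arrays lay between those of siCon + IL-1 and those without IL-1, and the 2 groups without IL-1 overlapped.

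STAT3 rose with IL-1 by 1.47-fold in siHDAC6 cells (log2 difference 0.56, SE 0.10, adjusted p = 0.00986) and by 1.63-fold in siCon cells (0.70, SE 0.10, adjusted p = 0.0018). In siCon cells the 3 probes gave 0.83, 0.57 and 0.71, all called, but the call of the gene was lost under 1 of 21 alternatives. The rise in siHDAC6 cells lost its call under 5 of 21 alternatives, with values from 0.45 to 0.61, some of them fits without 1 array. In siHDAC6 cells the call was lost without siHDAC6 + IL-1 replicate 1, without siHDAC6 + IL-1 replicate 2 and without siHDAC6 replicate 2 (adjusted p = 0.0582, 0.0612 and 0.0675). The log2 difference between siHDAC6 + IL-1 and siCon + IL-1 cells was -0.22 (SE 0.10, 95% interval -0.45 to 0.01, adjusted p = 0.21). In the authors' log2 values that difference was -0.21 and passed (adjusted p = 0.0349). The arrays of these 2 groups did not overlap, which held for 52.4% of all genes. These values are mRNA levels of STAT3, and its phosphorylation was not measured here.

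SOCS3, the inhibitor that STAT3 induces and that binds gp130, gave no call in any comparison. It was measured by ILMN_1781001 alone, since its other probe, ILMN_2156250, was below detection on every array. Its log2 signal was 5.54 and 5.38 in siHDAC6 + IL-1 cells and 4.87 and 4.56 in siHDAC6 cells, against 5.62 and 4.84 in siCon + IL-1 cells and 5.11 and 5.18 in siCon cells. The siCon + IL-1 replicates lay far apart, 1 above and 1 below detection (SD 0.55), and they spanned the values of the siHDAC6 + IL-1 arrays. The siHDAC6 arrays were both below detection, and the siHDAC6 + IL-1 arrays were at least 1.39-fold higher, which did not pass (adjusted p = 0.0967). In siCon cells the log2 difference with IL-1 was 0.09 (adjusted p = 0.84). The first of these passed without siCon + IL-1 replicate 1 or 2 (adjusted p = 0.0159 and 0.0162), since the spread between those 2 arrays then no longer entered the error. The test of the difference between the fitted responses did not pass (adjusted p = 0.56).

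**Figure D2:**
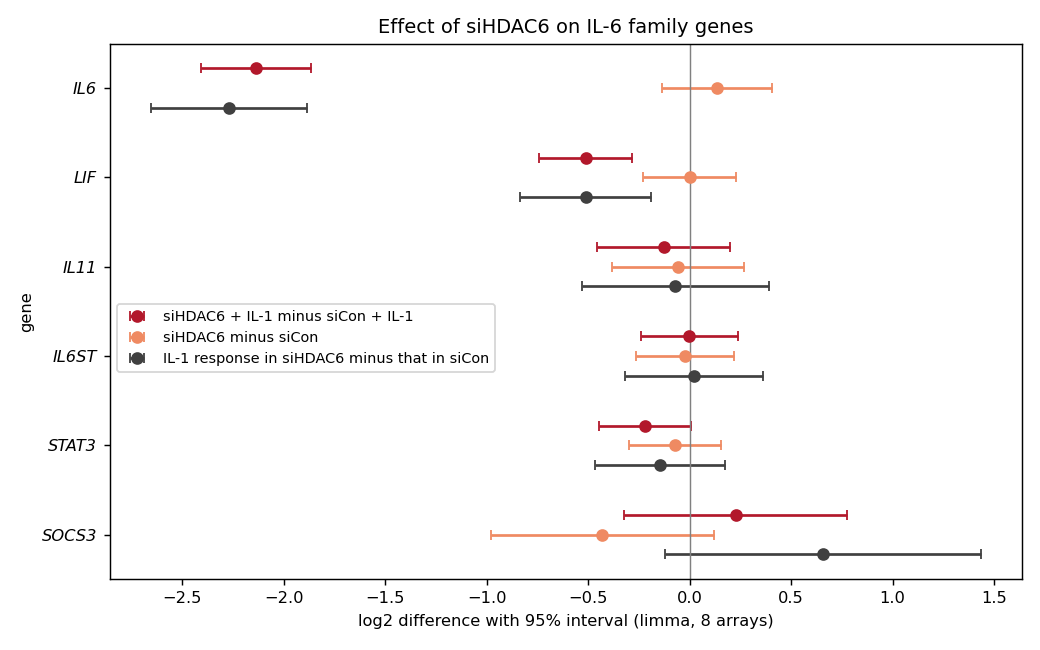
Log2 differences of the 6 measured genes with 95% intervals from limma, for siHDAC6 + IL-1 minus siCon + IL-1, for siHDAC6 minus siCon, and for the IL-1 response in siHDAC6 cells minus that in siCon cells. The intervals of IL6 run from -2.41 to -1.86 with IL-1 and include 0 without it, those of LIF from -0.74 to -0.28 with IL-1, and those of IL6ST lie around 0 in all 3 comparisons. The differences between responses of IL6, LIF, IL11 and SOCS3 use arrays below detection and have no measured size.

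Counted over the 6 genes, 4 rose with IL-1 in siHDAC6 cells (IL6, LIF, IL6ST and STAT3), where 10.3% of all genes were called and 5.99% were called higher. The same 4 rose in siCon cells, where 20.6% were called and 9.37% were called higher. IL6 and LIF passed the detection filter only through the arrays with IL-1, and IL11 through 1 array of each IL-1 group, so these counts carry no weight of their own. Between siHDAC6 + IL-1 and siCon + IL-1 cells 2 genes were lower (IL6 and LIF) and 0 higher, with 8.07% of all genes called and 4.42% called lower. The median log2 difference of the 6 genes there was -0.17, and that of all genes tested was 0.03. Between siHDAC6 and siCon cells limma called 0 of the 6, where 4.05% of all genes were called, and 0 had an unadjusted p under 0.05. In the test of the difference between the IL-1 responses IL6 was lower and the other 5 did not pass. The IL-1 comparison of siHDAC6 cells shares no array with that of siCon cells, but the siHDAC6 + IL-1 against siCon + IL-1 comparison shares arrays with both.

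Of the genes around the family, 70 were listed by role, 67 had a probe and 54 were tested. With IL-1, 28 rose and 2 fell in siHDAC6 cells, where 5.99% of all genes were called higher and 4.27% lower. In siCon cells 30 rose and 3 fell, where 9.37% of all genes were called higher and 11.2% lower. Among the risen genes SAA2 and SERPINA3 passed the detection filter only through the arrays with IL-1. Between siHDAC6 + IL-1 and siCon + IL-1 cells 9 were lower and 0 higher, where 4.42% of all genes were called lower and 3.65% higher. Between siHDAC6 and siCon cells 2 were lower (IL27RA and SHC1) and 1 higher (GRB2), where 2.41% of all genes were called lower and 1.64% higher. All 3 calls were lost when any 1 of the siHDAC6 or siCon arrays was left out, and with these 4 arrays alone. The call of IL27RA was lost under 5 of 19 alternatives, that of GRB2 under 12 of 20 and that of SHC1 under 13 of 21. Their median log2 difference between siHDAC6 + IL-1 and siCon + IL-1 cells was -0.15, against 0.03 for all genes.

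Among the kinases, JAK2, which associates with gp130, had a log2 signal of 6.97 and 6.77 in siHDAC6 + IL-1 cells and 5.89 and 5.97 in siHDAC6 cells, against 8.02 and 7.91 in siCon + IL-1 cells and 6.10 and 6.17 in siCon cells. The IL-1 groups did not overlap with each other, which held for 52.4% of all genes, or with the groups without IL-1. In siHDAC6 + IL-1 cells JAK2 was 2.14-fold lower than in siCon + IL-1 cells (log2 difference -1.09, SE 0.11, adjusted p = 0.00235), and this call held under all 19 alternatives. With IL-1 it rose by 0.94 on the log2 scale in siHDAC6 cells and by 1.83 in siCon cells (adjusted p = 0.00142 and 2.07e-05). The test of the difference between these responses gave -0.89 (SE 0.16, adjusted p = 0.109). TYK2, another kinase of the family, rose by 0.62 in siHDAC6 and by 0.57 in siCon cells and differed by 0.01 between the IL-1 groups (adjusted p = 0.98).

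**Figure D3:**
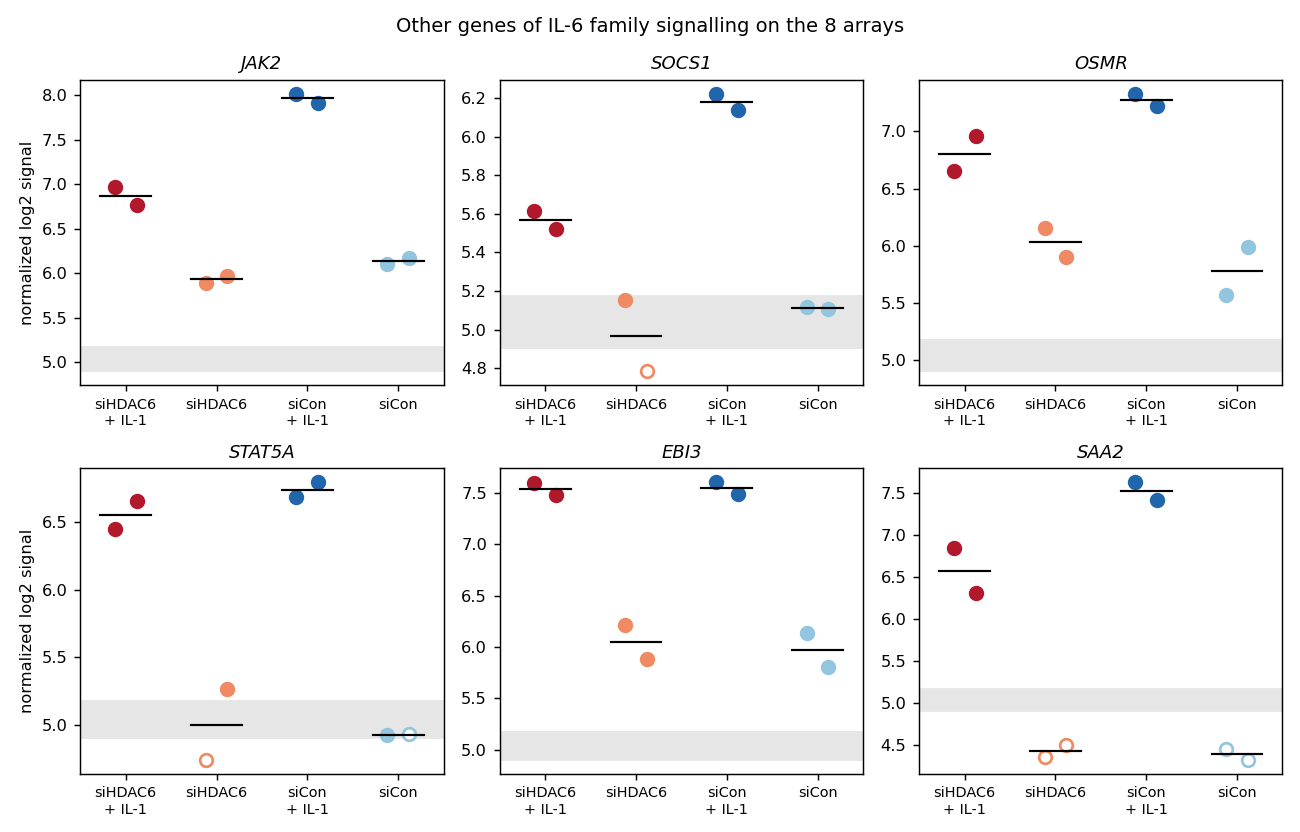
Normalized log2 signal of genes around the IL-6 family on each of the 8 arrays, drawn as for the family genes, with filled points detected, hollow points not detected and bars at the group means. JAK2 lay at 6.97 and 6.77 in siHDAC6 + IL-1 cells and at 8.02 and 7.91 in siCon + IL-1 cells.

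Of 7 receptors 4 were tested. OSMR, the chain through which oncostatin M signals together with gp130, rose with IL-1 by 0.78 on the log2 scale in siHDAC6 cells and by 1.5 in siCon cells (adjusted p = 0.0298 and 0.000723). Its log2 difference between siHDAC6 + IL-1 and siCon + IL-1 cells was -0.47 (adjusted p = 0.14). IL27RA, which pairs with gp130 for IL-27, was lower after HDAC6 depletion both with IL-1 (-0.64, adjusted p = 0.0294) and without it (-0.80, adjusted p = 0.0205). Without IL-1 that call was lost on leaving out any of the 4 arrays compared (adjusted p = 0.0537 to 0.134). IL6R, the receptor that binds IL-6 itself, was detected on 0 siHDAC6 + IL-1 arrays and on both siHDAC6 arrays, and fell with IL-1 at least 1.42-fold in siHDAC6 cells (adjusted p = 0.0418). In siCon cells its log2 difference was -0.58 (adjusted p = 0.0538). IL11RA had no probe listed.

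Of 7 other ligands only EBI3 and CTF1 were tested. EBI3, a subunit of IL-27, rose with IL-1 by 1.49 in siHDAC6 cells and by 1.58 in siCon cells (adjusted p = 0.000714 and 0.000315), and its log2 difference between the IL-1 groups was -0.01. CTF1, which encodes cardiotrophin 1, fell with IL-1 in siCon cells by 0.57 (adjusted p = 0.0208). Of the other STATs, STAT5A rose by 1.56 in siHDAC6 cells and by 1.82 in siCon cells (adjusted p = 0.000898 and 0.000227). Without IL-1 it was near the detection limit and detected on 1 array of each group, so the size of its rise is not well measured. Under the alternatives it ran from 0.52 to 1.81 in siHDAC6 cells and from 0.63 to 1.86 in siCon cells.

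Of 7 inhibitors 5 were tested. SOCS1, a relative of SOCS3 that blocks Janus kinases, had a log2 signal of 5.62 and 5.52 in siHDAC6 + IL-1 cells and 5.15 and 4.78 in siHDAC6 cells, against 6.22 and 6.14 in siCon + IL-1 cells and 5.12 and 5.11 in siCon cells. The difference of siHDAC6 + IL-1 from siCon + IL-1 cells was -0.61 on the log2 scale (adjusted p = 0.0345), a call lost under 8 of 19 alternatives. SOCS2 fell with IL-1 by 0.75 in siHDAC6 cells and by 0.61 in siCon cells (adjusted p = 0.0334 and 0.0432). PTPN2, a phosphatase that acts on Janus kinases and STATs, rose with IL-1 in siHDAC6 cells by 0.68 (adjusted p = 0.0329), a call lost under 9 of 20 alternatives, with a value of 0.41 in siCon cells (adjusted p = 0.11). Of the sheddases, ADAM17, which can release the IL-6 receptor from the cell surface, rose with IL-1 in siCon cells by 0.62 (adjusted p = 0.00522), and its value in siHDAC6 cells was 0.29 (adjusted p = 0.14). The ADAM17 probes disagreed, since ILMN_1908488 gave 0.0086 in siCon cells. Of the adaptors that carry gp130 signals to the ERK kinases, 4 were tested. Between siHDAC6 + IL-1 and siCon + IL-1 cells SHC1 alone was lower (-0.62, adjusted p = 0.0183), where 4.42% of all genes were called lower. SHC1 was also lower without IL-1 (-0.54, adjusted p = 0.0428). Its IL-1 response was -0.18 in siHDAC6 cells and -0.095 in siCon cells (adjusted p = 0.38 and 0.60).

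Of 25 known target genes of STAT3, 21 were tested, many of which NF-kB is also known to switch on. With IL-1, 14 rose and 0 fell in siHDAC6 cells, where 5.99% of all genes were called higher and 4.27% lower. In siCon cells 15 rose and 1 fell, where 9.37% were called higher and 11.2% lower. SAA2 and SERPINA3 are counted among the risen genes though they were below detection on all arrays without IL-1. CEBPD, a transcription factor of the acute-phase response, rose by 2.87 on the log2 scale in siHDAC6 cells and by 3.17 in siCon cells (adjusted p = 2.2e-06 and 1.01e-06). IRF1, an interferon-regulated transcription factor, rose by 2.55 in siHDAC6 and by 2.59 in siCon cells. The acute-phase gene SAA1 rose by 2.59 in siHDAC6 and by 2.99 in siCon cells. Without IL-1 it lay at the detection limit (4.63 and 4.81 in siHDAC6, 4.54 and 4.80 in siCon cells), detected on 1 array of each group. The size of its rise is thus not well measured. Under the alternatives it ran from 1.02 to 3.55 in siHDAC6 and from 0.98 to 4.29 in siCon cells. The probes of SAA1 and its near-identical neighbour SAA2 may share signal. Between siHDAC6 + IL-1 and siCon + IL-1 cells 3 of the 21 were lower, where 4.42% of all genes were called lower and 3.65% higher. They were SAA2 (-0.94, adjusted p = 0.0219), BCL6 (-0.46, adjusted p = 0.0446) and HIF1A (-0.45, adjusted p = 0.0307). The other 18 did not pass, CEBPD with -0.22 and IRF1 with -0.18 among them. Without IL-1, siHDAC6 minus siCon was -0.47 for BCL6 (adjusted p = 0.0589) and -0.22 for HIF1A (adjusted p = 0.27), and SAA2 was below detection. The IL-1 responses of BCL6 differed by 0.02 (adjusted p = 0.99).

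The 11 listed regulators of IL6 transcription or mRNA decay were all tested. With IL-1, 7 rose in siHDAC6 cells and 8 in siCon cells, where 5.99% and 9.37% of all genes were called higher. ZC3H12A, which encodes the ribonuclease regnase-1 that degrades IL6 mRNA, rose by 4.01 on the log2 scale in siHDAC6 cells and by 4.29 in siCon cells (adjusted p = 7.08e-07 and 2.99e-07), and its difference between the IL-1 groups was -0.39 (adjusted p = 0.10). Between siHDAC6 + IL-1 and siCon + IL-1 cells 2 of the 11 were lower, where 4.42% of all genes were called lower and 3.65% higher. ATF3, a stress-induced transcription factor, was lower by 0.81 (adjusted p = 0.00903). NFKBIZ, an NF-kB cofactor needed for IL6 transcription, was lower by 0.47 (adjusted p = 0.027). The NF-kB subunits RELA and NFKB1 gave -0.35 and -0.13 in that comparison (adjusted p = 0.089 and 0.48), and CEBPB, the C/EBP factor first found at IL6, gave -0.11 (adjusted p = 0.64).

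**Figure D4:**
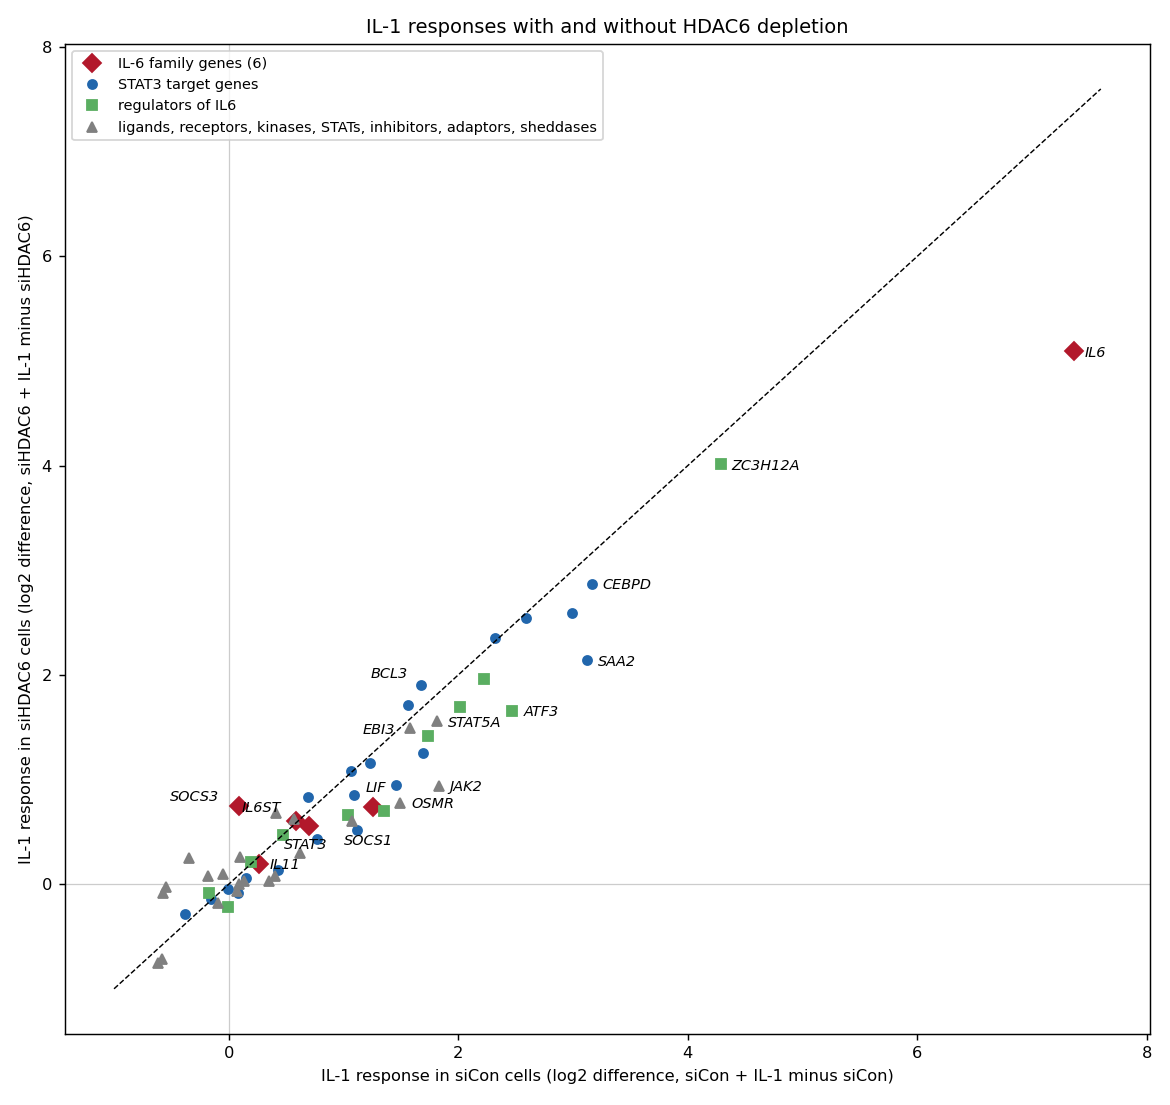
IL-1 response in siHDAC6 cells (y axis, log2 difference siHDAC6 + IL-1 minus siHDAC6) against that in siCon cells (x axis, log2 difference siCon + IL-1 minus siCon) for the 6 measured family genes and the 54 genes around them, 1 point a gene. The dashed line marks equal responses, IL6 stands at fitted values of 5.09 and 7.36, taken against arrays below detection, and JAK2 at 0.94 and 1.83, both below the line, and ZC3H12A at 4.01 and 4.29 close to it.

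Of the 9 genes around the family that HDAC6 depletion lowered in the presence of IL-1, JAK2 alone kept its call under every alternative. The other 8 each lost it on leaving out any of at least 3 of the 4 IL-1 arrays. Several smaller calls of the IL-1 comparisons were lost under some alternatives too, in siHDAC6 cells those of OSMR (4 of 19), TYK2 (5 of 19), IL6R (10 of 18) and SOCS2 (9 of 20), and in siCon cells those of CTF1 (4 of 19), TYK2 (5 of 19) and SOCS2 (11 of 20). The test of the difference between the IL-1 responses called 0 of the 54 genes with limma, where 0.116% of all genes were called. An unadjusted p under 0.05 was reached by 9, of which 7 had a smaller fitted response in siHDAC6 cells, SAA2 with its arrays below detection without IL-1 among them. The share of all genes at that unadjusted p was not counted, so this count and its direction are not read as a result.

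The genes whose pattern was most like that of IL6 over the 8 arrays were CCL20 (Pearson r 0.9996), MMP12 (0.9992) and IL1B (0.9991), out of 939 genes whose group means spanned at least 1 on the log2 scale. For LIF they were PI3 (0.9973), BATF3 (0.9967) and DEFB4A (0.9956). The 8 arrays fall into the 4 groups and share the IL-1 contrast, so these values describe an order of levels only.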

How the data were processed

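Total RNA was profiled on 8 Illumina whole-genome arrays. The authors deposited the signal intensity of each probe without background subtraction or normalization between arrays, with a detection p-value for each signal. A table of log2 values was deposited as well, for which the submitters name lumi, without a version, with a variance-stabilising transform followed by robust splines. The detection columns share 1 header, and each was assigned to the signal column on its left. The platform of the probe table is another array version than the one named in the study's methods. Its symbols were used as given, with 27578 probes under 1 symbol, 13 under several and 21212 with none listed, and matching to RefSeq gene numbers updated 0 symbols.

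Signals were processed with limma 3.58.1 in R 4.3.3 by neqc, which corrects background from the detection p-values, adds an offset of 16, normalizes by quantiles and takes log2. The detection filter (p under 0.05 on at least 2 arrays) left 18045 probes, and averaging its 14483 probes of a single symbol gave 11182 genes. A linear model with 1 mean per group (lmFit, eBayes, 4 residual and 3.79 prior degrees of freedom) gave 5 contrasts, adjusted by Benjamini-Hochberg over all genes and called at an adjusted p under 0.05. The group order and contrasts follow the labels. Where both arrays of a group were below detection, a fold is a lower bound against the lowest detected signal of each array. The p-value beside such a bound is that of the fitted difference. The number of arrays limits the precision.

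The 7 genes, the lists around them and the rule for naming genes were chosen with earlier results of these data known. By that rule the 7 genes and HDAC6 are named, called genes of each list may be named, and at most the 4 with the largest change in a list and comparison have values. Values of named genes in comparisons without a call, and uncalled genes, were added after the values were seen. Gene lists gave counts and medians only. The workflow was tested on simulated data. The alternatives were the authors' log2 values, median scaling, an offset of 50, leaving out the background correction, leaving out the filter or tightening it (p under 0.01 on all arrays of at least 1 group), the probe with the highest mean, each probe on its own, eBayes with trend and robust, the 4 arrays of a comparison alone, a replicate block, and leaving out each array. Promoter sequences are from RefSeq (GRCh38.p14).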

Additional observations from a re-analysis of the deposited data

Results flagged for a closer look

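The fitted IL-1 response of IL6 in siHDAC6 cells minus that in siCon cells passed the test of the difference, at -2.27 on the log2 scale (limma interaction, adjusted p = 0.00555). The log2 signals were 9.74 and 9.60 in siHDAC6 + IL-1 cells against 11.75 and 11.86 in siCon + IL-1 cells. All 4 arrays without IL-1 were below detection, so each response is a lower bound, the size of their difference is not known, and the value rests on the difference between the IL-1 groups. Its direction held under all 18 alternatives run for it, with values from -2.38 to -2.14, and the call under 17 of them. HDAC6 was lower on the same siHDAC6 arrays, and its part in the result was not tested beyond the comparison of the siRNA groups. With 2 arrays a group, no array was tested as an outlier.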

How the results depend on the processing

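Of the 6 family genes, the main counts called were 4 for the IL-1 comparison in siHDAC6 cells, 4 for that in siCon cells, 2 for siHDAC6 + IL-1 against siCon + IL-1, 0 for siHDAC6 against siCon and 1 for the interaction (the difference between the IL-1 responses). Median scaling gave 1, 2, 1, 0 and 1. Over all genes its calls were, in the same order, 529, 1456, 236, 180 and 13. The main calls over all genes were 1148, 2300, 902, 453 and 13. Counts of the settings that follow are given without the share of all genes and are not read as particular to the family. No background correction, trend and robust, and the 4 arrays alone each gave 1 for siHDAC6 + IL-1 against siCon + IL-1. Leaving out each array gave, in the same order, 2 to 5, 4 to 4, 1 to 2, 0 to 0 and 0 to 1, the last 0 without siCon replicate 2. IL6 kept its call and direction in both IL-1 comparisons and in siHDAC6 + IL-1 against siCon + IL-1 under all 19 alternatives, with fitted log2 rises no lower than 2.96 in siHDAC6 and 5.15 in siCon cells. The cause of the lost calls was not tested. Low signal limits LIF, IL11 and SOCS3.

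Same-numbered arrays were not paired, since their deviations correlated at -0.0431 to 0.0471. With the replicate block the counts were 4, 4, 2, 0 and 1, and no family gene lost its call (LIF, adjusted p = 0.039). Around the family 8 calls were lost with the block, BCL6 (adjusted p = 0.067) and GRB2 and SHC1 (0.0681 and 0.0614) among them. A slide block was not run because the files name no slide.

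Median scaling moved the median of all genes by 0.13 in siHDAC6 + IL-1 against siCon + IL-1, by -0.16 in the IL-1 comparison of siCon cells and by 0.20 in the interaction. It turned the share of calls that were higher to 59.7% against 45.2% in siHDAC6 + IL-1 against siCon + IL-1, to 81.7% against 58.4% in the IL-1 comparison of siHDAC6 cells, to 17.2% against 40.4% in siHDAC6 against siCon and to 38.5% against 7.69% in the interaction. The authors' values gave 43.9% higher in the IL-1 comparison of siHDAC6 cells and 27.4% in the interaction. The 9 lower genes around the family became 1 with median scaling, 2 with the 4 arrays alone and 1 to 8 without 1 array, and the authors' values gave 13 lower and 2 higher. Without siCon + IL-1 replicate 1, 3 were higher.

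All 31 family values that changed sign were uncalled before and after. Without 1 array, siHDAC6 minus siCon ran from -0.039 to 0.039 for LIF and -0.089 to 0.044 for IL6ST. SiHDAC6 + IL-1 minus siCon + IL-1 ran from -0.29 to 0.0093 for IL11, -0.062 to 0.059 for IL6ST and -0.17 to 0.62 for SOCS3. The interaction ran from -0.24 to 0.067 for IL11 and -0.047 to 0.087 for IL6ST, and the IL-1 comparison of SOCS3 in siCon cells from -0.30 to 0.49 (-0.0096 with no filter). LIF in siHDAC6 against siCon gave -0.0012 with the authors' values and -0.0015 with no background correction. IL6ST with IL-1 gave 0.16 (median scaling), 0.064 (no filter) and 0.089 (ILMN_1797861), and without IL-1 0.017 (authors' values) and 0.050 (highest-mean probe, ILMN_1849013). Its interaction gave -0.043 (authors' values), -0.015 (no background correction), -0.010 (offset of 50) and -0.14 (highest-mean probe, ILMN_1849013). STAT3 gave 0.017 (ILMN_1663618) and 0.035 (ILMN_2410986) in siHDAC6 against siCon, and 0.071 (median scaling) and 0.037 (highest-mean probe, ILMN_2401978) in the interaction. HDAC6 in the IL-1 comparison of siCon cells gave -0.035 with median scaling.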
